A study of Mus musculus with 12 samples.

Results

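The cadherin and protocadherin genes are taken here as the rows of the count table whose symbol is Cdh followed by a digit or starts with Pcdh. The rule found 85 of 33352 genes: 23 Cdh genes and 62 Pcdh genes. Of these, 35 are single genes scattered over 11 chromosomes and 50 belong to the 3 protocadherin clusters on chromosome 18. The rule found 8 genes of the alpha, 21 of the beta and 21 of the gamma cluster. Some annotated cluster genes, such as Pcdha4 and Pcdhga10, were not among the rows found. Cluster sums and shares below cover only the rows found. RNA was measured in flow-sorted cells of the aorta and its perivascular fat of male CD-1 mice aged 13 weeks. There were 4 sorted populations, called Progenitor, Intermediate, SMC1 and SMC2 (2 smooth muscle populations), with 3 libraries each; no genetic change or treatment is given for any of them, and the surface markers of the sort are not given in the sources used here. Libraries were made with the SMART-Seq v4 kit after poly(A) selection, and held 13258631 to 22647175 counts. The labels give the 4 populations of each replicate number a common prefix. The main fit did not pair them, and a fit with the replicate number as a block was run as an alternative. The labels do not say whether a library came from 1 animal or from pooled animals, so p-values reflect only how far these libraries spread, and some of that spread may be technical.

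Smooth muscle markers were high in both SMC populations. The summed level of 8 smooth muscle genes was 31194 to 37256 CPM (counts scaled to a common library size) in SMC1 and 21275 to 30029 in SMC2, against 273.8 to 673.7 in the 6 other libraries. For 8 fibroblast and progenitor genes the sum was 40970 to 62616 CPM in Progenitor and Intermediate and 419.9 to 1858 in the 6 SMC libraries. Markers of other cells also differed between populations. All 6 adipocyte genes were higher in SMC2 than in Progenitor, where 23.1% of all genes tested were. Their sum was 1885 to 2287 CPM in SMC2 against 54.1 to 300.6 in the 9 libraries of the other populations. The sum of 9 Schwann cell genes was 114 to 249 CPM in SMC2 and 20.2 to 49.4 elsewhere. The sum of 11 mesothelial genes was 189 to 454 CPM in Intermediate and 17.2 to 79.0 elsewhere. A leukocyte list stood at 569 CPM in SMC1 replicate 1 and at 91.9 to 234.7 in the other libraries. The part of these cells in the results below was not tested, and in bulk samples fewer cells of a type and less RNA per cell cannot be told apart.

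Cadherins are calcium-dependent adhesion proteins that span the membrane and bind cadherins on neighbouring cells through their extracellular repeats. Type I (epithelial, neural, placental) and type II classical cadherins hold the actin cytoskeleton through catenins on their cytoplasmic tail, and the type II members are known for selective pairing between cells. Nonclustered protocadherins of the delta-1 and delta-2 groups have other cytoplasmic tails, while the clustered protocadherins are best known for giving single neurons an identity through combinations of isoforms. In the alpha and gamma clusters each gene has a variable first exon of its own that is spliced to constant exons common to the whole cluster, whereas each beta gene is a single exon.

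That layout bears on the counts. In the GENCODE M21 annotation, 48.6 to 63.6% of the exon bases of each alpha gene (median 53.6%) and 31.5 to 73.6% of those of each gamma gene (median 45.2%) are also exon bases of another gene. Only 3 of the 21 beta genes share any: Pcdhb12 (63.5%), Pcdhb21 (9.67%) and Pcdhb22 (6.88%), the last pair with each other. Pcdhgb8 has the same constant exons as Pcdhgc3 but stood at 0.124 to 0.547 CPM in the 12 libraries, where Pcdhgc3 stood at 2.39 to 49.4, so reads in the constant exons were not credited to every gene. How they were treated is not given in the sources used here, and values of single gamma and alpha genes are uncertain to that extent. Outside the clusters, Pcdh7 shares 21.1% of its exon bases with 4932441J04Rik, whose own row held 1 to 33 counts per library, and the kit does not mark strand. The row named Pcdha10 carries an identifier that GENCODE M21 calls Pcdha11.

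A run of 5 type II genes on chromosome 15, from 13028701 to 23474418 (GRCm38), holds the members Cdh6, Cdh9, Cdh10, Cdh12 and Cdh18. Their upstream sequences are shown because Cdh6, Cdh9, Cdh12 and Cdh18, though neighbours, were highest in different sets of populations. Each window covers up to 250 bases before the RefSeq start (GRCm38.p6), ended where a GENCODE exon of the gene begins, and capitals mark E-boxes, CANNTG, the core letters bound by basic helix-loop-helix factors such as Twist1. The windows are chr15:13173676-13173925 on the minus strand for Cdh6, and on the plus strand chr15:16728665-16728755 for Cdh9, chr15:18820079-18820328 for Cdh10, chr15:21111202-21111333 for Cdh12 and chr15:23036213-23036454 for Cdh18.
Cdh6: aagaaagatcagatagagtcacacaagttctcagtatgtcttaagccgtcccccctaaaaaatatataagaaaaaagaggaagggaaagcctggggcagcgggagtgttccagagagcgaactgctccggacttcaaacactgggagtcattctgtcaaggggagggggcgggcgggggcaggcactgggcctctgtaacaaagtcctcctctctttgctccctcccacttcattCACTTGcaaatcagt
Cdh9: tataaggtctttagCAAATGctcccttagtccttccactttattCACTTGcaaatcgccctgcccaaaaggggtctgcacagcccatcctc
Cdh10: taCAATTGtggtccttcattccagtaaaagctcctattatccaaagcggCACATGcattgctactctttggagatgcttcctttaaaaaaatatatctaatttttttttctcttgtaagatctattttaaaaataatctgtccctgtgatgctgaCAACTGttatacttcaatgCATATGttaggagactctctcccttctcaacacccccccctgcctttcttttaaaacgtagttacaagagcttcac
Cdh12: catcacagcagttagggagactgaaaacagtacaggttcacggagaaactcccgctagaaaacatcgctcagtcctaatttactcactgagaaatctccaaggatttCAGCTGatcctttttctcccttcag
Cdh18: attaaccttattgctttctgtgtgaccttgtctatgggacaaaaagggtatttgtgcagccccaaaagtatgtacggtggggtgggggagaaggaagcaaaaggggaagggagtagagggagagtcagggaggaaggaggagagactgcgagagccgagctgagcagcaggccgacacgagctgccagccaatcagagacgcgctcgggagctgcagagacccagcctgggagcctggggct
The Cdh6 and Cdh9 windows, as printed, lie before the annotated gene. The RefSeq start of Cdh9 lies 159 bases inside the GENCODE gene, so only 91 bases of its window are printed. The RefSeq starts of Cdh10, Cdh12 and Cdh18 lie 1382, 662187 and 487441 bases inside the longer GENCODE genes, so those windows are within introns of longer transcripts. Over the full 250 bases, CANNTG was found 1 time in Cdh6, 3 in Cdh9, 4 in Cdh10, 1 in Cdh12 and 0 in Cdh18. For Cdh9, Cdh12 and Cdh18 the full window runs into annotated exons, and 2 of the 3 matches of Cdh9 lie in its printed bases. Of 32817 windows of that length, 66.2% held at least 1. The CArG box, the core bound by serum response factor, was in 0 of the 5 on either strand and in 1.47% of all windows. GGGCGG was found 2 times in Cdh6 and in 0 of the other 4, against 32.7% of all windows. The longest run common to 2 of the printed sequences was attCACTTGcaaatc, 15 bases on the coding strand of both Cdh6 (chr15:13173679-13173693) and Cdh9 (chr15:16728706-16728720). Of the 32817 windows, the only 2 that held this run on either strand were those of Cdh6 and Cdh9. It came from a search over all pairs of the printed sequences for their longest common run, so it was selected from these sequences. The run ends 3 bases before the RefSeq start of Cdh6 and 194 bases before that of Cdh9. Both SMC populations were above Progenitor in Cdh6 and below it in Cdh9, as the values below show. A match describes letters, not binding. Of the 85 members, 22 had an entry in the table of upstream sequences.

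Of the 85 members, 73 passed the filter on low counts and 12 did not. The 12 were Cdh7, Cdh8, Cdh15, Cdh22, Pcdhgb8 and 7 of the 8 alpha genes, none above 0.840 CPM in any library. Among the 73 tested, 63 (86.3%) differed among the 4 populations (edgeR quasi-likelihood test, adjusted p below 0.05), where 66.2% of all 19016 genes tested did. Members that passed the filter through 1 population were more likely to differ, so this count describes them and no more. By comparison, 29 members differed between Intermediate and Progenitor (39.7%; 22.2% of all genes), 35 between SMC1 and Progenitor (47.9%; 48.3%) and 45 between SMC2 and Progenitor (61.6%; 44.8%). For the other pairs the counts were 42 for SMC1 against Intermediate (57.5%; 41.6%), 57 for SMC2 against Intermediate (78.1%; 44.6%) and 42 for SMC2 against SMC1 (57.5%; 34.6%). The split by direction leaned to lower levels in SMC2: 10 higher and 35 lower than in Progenitor, 13 and 44 against Intermediate, 10 and 32 against SMC1. Over all genes tested, 23.1% were higher and 21.7% lower in SMC2 than in Progenitor, 21.4% and 23.2% against Intermediate, and 16.5% and 18.1% against SMC1. For the other pairs, 12.7% of all genes were higher and 9.46% lower in Intermediate than in Progenitor, 25.3% and 23.1% in SMC1 than in Progenitor, and 19.7% and 21.9% in SMC1 than in Intermediate. Of the members, 20 were higher and 9 lower in Intermediate than in Progenitor; with upper-quartile scaling these were 13 and 9, and the share of all calls that were higher went from 57.3% to 39.2%. For SMC1 over Progenitor, 15 members were higher and 20 lower, and the share of all calls that were higher went from 52.3% to 41.3% under that scaling. Comparisons that share a population share its 3 libraries and are not independent.

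**Figure D1:**
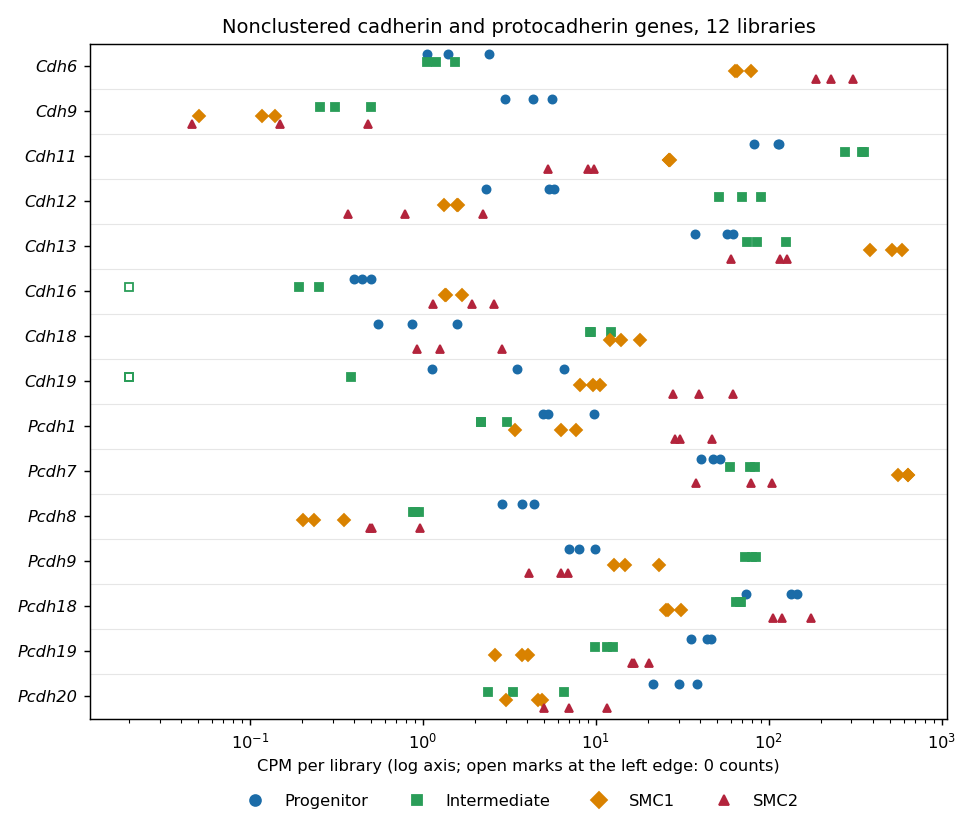
CPM of 15 nonclustered members in each of the 12 libraries, on a log axis, with 1 mark per library and colour and shape for the population; open marks at the left edge are libraries with 0 counts. Cdh6 and Cdh19 have their highest marks in SMC2, Pcdh7 and Cdh13 in SMC1, Cdh11, Cdh12 and Pcdh9 in Intermediate, and Pcdh19, Pcdh20, Pcdh8 and Cdh9 in Progenitor.

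Set per kilobase of exon not shared with another gene, the scale on which genes can be compared, the highest mean levels, taking each gene in its highest population, were those of Pcdh7 in SMC1 at 72.9 ± 5.53 CPM per kilobase (SD, n = 3) and Cdh13 in SMC1 at 44.3 ± 9.15. Cdh11 in Intermediate followed at 36.3 ± 4.89, Cdh6 in SMC2 at 26.7 ± 6.69, Pcdh18 in SMC2 at 24.7 ± 6.80 and Pcdhgc3 in Intermediate at 21.03 ± 1.56. Over all exon bases, Pcdh7 in SMC1 stood at 57.6 and Pcdhgc3 in Intermediate at 6.96 CPM per kilobase, so the rank of Pcdhgc3 depends on how its constant exons are counted. All values that follow are CPM, for comparing 1 gene between populations.

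Among the type II cadherins, Cdh6 (kidney cadherin, minus strand of chromosome 15, 13028701 to 13173675) was higher in both SMC populations than in Progenitor and Intermediate. It stood at 1.05, 1.40 and 2.40 CPM in Progenitor, 1.06, 1.19 and 1.53 in Intermediate, 65.0, 63.8 and 79.1 in SMC1 and 307, 229 and 188 in SMC2. Every SMC library was above every other library, and the 2 SMC populations did not overlap. The log2 change was 5.45 ± 0.27 (SE) for SMC1 over Progenitor (adjusted p = 2.21e-12), 7.25 ± 0.28 for SMC2 over Progenitor (adjusted p = 9.54e-14) and 1.80 ± 0.21 for SMC2 over SMC1 (adjusted p = 8.68e-07). Progenitor and Intermediate overlapped.

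Cdh11 (osteoblast cadherin, a classical adhesion molecule of mesenchymal cells, chromosome 8, 102632095 to 102785642) took 4 separate levels. It stood at 114, 81.5 and 112 CPM in Progenitor, 343.5, 273 and 353 in Intermediate, 26.9, 26.3 and 26.6 in SMC1 and 5.25, 9.73 and 8.94 in SMC2, with no overlap between any 2 populations. It rose by 1.66 ± 0.20 on the log2 scale from Progenitor to Intermediate (adjusted p = 4.9e-06). The log2 change was -1.95 ± 0.20 for SMC1 over Progenitor (adjusted p = 8.96e-08), -3.69 ± 0.22 for SMC2 over Progenitor (adjusted p = 2.29e-11) and -1.74 ± 0.21 for SMC2 over SMC1 (adjusted p = 1.53e-06). Cdh11 was thus lower, and Cdh6 higher, in both SMC populations than in either of the others.

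Of the neighbours of Cdh6 on chromosome 15, Cdh12 (brain cadherin, 20449265 to 21589533) was highest in Intermediate. It stood at 51.8, 69.8 and 90.3 CPM in Intermediate, 2.32, 5.33 and 5.75 in Progenitor, 1.32, 1.59 and 1.58 in SMC1 and 0.368, 0.790 and 2.22 in SMC2. Each Intermediate library was above all others; the log2 change over Progenitor was 4.005 ± 0.40 (adjusted p = 4.05e-06). SMC1 was lower than Progenitor by less than that (log2 change -1.55 ± 0.45, adjusted p = 0.00953), a call lost without Progenitor replicate 3 (adjusted p = 0.0528). Of 11 mesothelial markers, 10 were higher in Intermediate than in Progenitor and 1 was lower (12.7% and 9.46% of all genes). The lower one was Wt1 (log2 change -1.65, adjusted p = 0.0102). The mesothelial sum was 201, 189 and 454 CPM in Intermediate replicates 1, 2 and 3. Replicate 3 was highest in both this sum and Cdh12, while replicates 1 and 2 had the opposite order in them. The part of mesothelial cells in the Cdh12 level was not tested.

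Cdh18 (22549022 to 23474418) was high in both Intermediate, at 9.32, 9.29 and 12.2 CPM, and SMC1, at 12.01, 18.0 and 13.999. It stood at 0.547, 0.867 and 1.58 in Progenitor and 0.920, 2.86 and 1.3 in SMC2. The Intermediate and SMC1 libraries overlapped with each other and with none of the other 6. The log2 change was 3.39 ± 0.39 for Intermediate over Progenitor (adjusted p = 3.63e-06), 3.91 ± 0.39 for SMC1 over Progenitor (adjusted p = 6.64e-08) and -3.12 ± 0.36 for SMC2 over SMC1 (adjusted p = 1.1e-06).

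Cdh9 (16728756 to 16857094) was the Progenitor gene of the run. It stood at 5.61, 4.33 and 2.97 CPM there, from 123, 65 and 47 counts, and at 0.0460 to 0.502 in the other 9 libraries, from 1 to 8 counts each. The log2 change was -3.57 ± 0.54 for Intermediate (adjusted p = 6.31e-05), -5.30 ± 0.62 for SMC1 (adjusted p = 4.68e-07) and -4.31 ± 0.57 for SMC2 (adjusted p = 2.09e-06), each against Progenitor. Cdh10, between Cdh9 and Cdh12, stood at 0 to 1.32 CPM in the 12 libraries, from 0 to 22 counts, and its population means had the same order as those of Cdh6. It was higher than in Intermediate in SMC2 (log2 change 3.53 ± 0.93, adjusted p = 0.00394) and in SMC1 (2.78 ± 0.97, adjusted p = 0.0261), the latter lost without any of 4 libraries, with adjusted p up to 0.103.

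Cdh19, a type II cadherin known from Schwann cells and their precursors (chromosome 1, 110888326 to 110977584), was highest in SMC2. It stood at 27.7, 39.2 and 62.0 CPM in SMC2, 10.5, 8.11 and 9.66 in SMC1 and 6.52, 1.13 and 3.47 in Progenitor. In Intermediate it was at 0, 0 and 0.383, the last from 6 counts. SMC2 lay above all other libraries (log2 change over SMC1 2.19 ± 0.47, adjusted p = 0.00278; over Progenitor 3.49 ± 0.51, adjusted p = 8.13e-05), and Intermediate below all others (log2 change over Progenitor -4.85 ± 0.90, adjusted p = 0.00188). Of 8 tested Schwann cell markers, 6 were higher and 1 lower in SMC2 than in Progenitor (23.1% and 21.7% of all genes). Against SMC1, 7 were higher and 0 lower in SMC2 (16.5% and 18.1% of all genes). Between Intermediate and Progenitor, where Cdh19 fell, 1 was higher and 0 lower (12.7% and 9.46% of all genes). Sox10, the Schwann lineage factor, was at 2.35, 2.72 and 6.48 CPM in SMC2, 1.12, 0.560 and 1.11 in SMC1 and 0 to 0.228 in the other 6 libraries. The part of Schwann cells in the Cdh19 level was not tested. The difference between SMC1 and Progenitor in Cdh19 (log2 change 1.30 ± 0.50, adjusted p = 0.0465) was lost on leaving out any of 10 libraries, with adjusted p up to 0.171.

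Type I cadherins and the endothelial Cdh5 fall outside the rule for named genes and were singled out after their values were seen. Cdh1 (E-cadherin) stood between 0.410 and 1.52 CPM in the 12 libraries and passed the test in 0 of the 6 comparisons. Its repressors are described further on. Cdh2 (N-cadherin) stood at 15.9, 15.6 and 15.7 CPM in SMC2 and 2.61 to 6.03 elsewhere, with a log2 change of 2.09 ± 0.25 over SMC1 (adjusted p = 1.33e-06). Cdh3 (P-cadherin) was highest in SMC1, at 8.04, 7.04 and 8.67 CPM, against 0.456 to 0.884 in Progenitor (log2 change 3.62 ± 0.40, adjusted p = 1.67e-07). Cdh4 (R-cadherin) was highest in Intermediate, at 8.45, 8.79 and 8.43 CPM against 1.78 to 6.68 in the other 9 libraries, with a log2 change of 1.91 ± 0.28 over Progenitor (adjusted p = 4.44e-05). Cdh5 (VE-cadherin, the endothelial junction protein) stood at 11.8, 5.92 and 6.33 CPM in SMC1 and 0.746 to 4.17 elsewhere. For Cdh5 the log2 change over Intermediate was 2.08 ± 0.55 (adjusted p = 0.0063). The sum of 11 endothelial markers was 390 to 556 CPM in SMC1 and 468 to 556 in SMC2, against 112 to 262 in the other 6 libraries. Of these 11 markers, 9 were higher and 0 lower in SMC1 than in Intermediate (19.7% and 21.9% of all genes). Against Progenitor, 7 were higher and 1 lower in SMC1 (25.3% and 23.1% of all genes). Between SMC2 and SMC1, 1 was higher in SMC2, 5 were lower and 5 were not called (16.5% of all genes higher, 18.1% lower). Their part in the Cdh5 level was not tested.

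Cdh13 (T-cadherin, an adiponectin receptor held by a lipid anchor and lacking a cytoplasmic tail; chromosome 8, 118283733 to 119324921) was an SMC1 gene. It stood at 516, 386 and 589.5 CPM in SMC1, 37.6, 61.9 and 57.4 in Progenitor, 126, 85.6 and 74.7 in Intermediate and 60.3, 127 and 115.5 in SMC2. SMC1 was above all other libraries, with a log2 change of 3.25 ± 0.29 over Progenitor (adjusted p = 3.5e-08), 2.38 ± 0.28 over Intermediate (adjusted p = 1.57e-06) and -2.30 ± 0.28 for SMC2 over SMC1 (adjusted p = 3.52e-06). SMC2 was higher than Progenitor by 0.95 ± 0.27 (adjusted p = 0.00786), a call lost without SMC2 replicate 2 (adjusted p = 0.0682). Cdh16 (kidney-specific cadherin) was low, at 1.14 to 2.58 CPM in the 6 SMC libraries and 0 to 0.501 in the others, where it had 0 to 11 counts; the log2 change was 3.25 ± 0.63 for SMC1 over Intermediate (adjusted p = 0.000259).

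Delta-1 protocadherins divided among the populations. Pcdh7 (chromosome 5, 57717967 to 58133230) was the member with the highest CPM in SMC1: 557, 635 and 639 there, 40.5, 47.3 and 52.3 in Progenitor, 59.8, 77.4 and 82.9 in Intermediate and 38.0, 105 and 79.0 in SMC2. SMC1 did not overlap with any other population, and the log2 change was 3.71 ± 0.28 over Progenitor (adjusted p = 1.91e-09) and -3.05 ± 0.27 for SMC2 over SMC1 (adjusted p = 5.84e-08). SMC2 and Progenitor overlapped; their difference (0.66 ± 0.26, adjusted p = 0.0423) was lost on leaving out any of 8 libraries, with adjusted p up to 0.502.

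Pcdh9 (chromosome 14, 93013410 to 93890679) was an Intermediate gene, at 72.3, 84.4 and 79.4 CPM there against 9.93, 8.001 and 6.95 in Progenitor, 14.8, 23.2 and 12.8 in SMC1 and 4.10, 6.27 and 6.90 in SMC2. Intermediate stood apart from the 9 other libraries, with a log2 change of 3.24 ± 0.23 over Progenitor (adjusted p = 9.41e-09) and -3.78 ± 0.24 for SMC2 over Intermediate (adjusted p = 6.47e-11). Pcdh1 (chromosome 18, 38185914 to 38212053), known from airway epithelium, was an SMC2 gene. It stood at 47.1, 28.8 and 30.7 CPM in SMC2, 4.92, 5.27 and 9.73 in Progenitor, 2.17, 3.08 and 2.17 in Intermediate and 7.69, 3.404 and 6.27 in SMC1. SMC2 was above all others, with a log2 change of 2.43 ± 0.30 over Progenitor (adjusted p = 2.03e-06) and 2.62 ± 0.30 over SMC1 (adjusted p = 1.68e-06). The adipocyte markers named above were high in the same 3 libraries: Pparg, the adipogenic nuclear receptor, stood at 456, 329 and 315 CPM in SMC2 and 2.24 to 38.1 elsewhere. Their part in the levels of Pcdh1 and Cdh2 was not tested.

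Of the 5 delta-2 protocadherins, 3 were lower in SMC1 than in Progenitor and 0 higher (23.1% and 25.3% of all genes); Pcdh10 and Pcdh17 did not pass the test there. Pcdh18 (chromosome 3, 49743296 to 49757325) stood at 146, 73.3 and 134 CPM in Progenitor, 68.0, 64.5 and 69.2 in Intermediate, 26.0, 25.3 and 30.9 in SMC1 and 174, 119 and 105 in SMC2. SMC1 was below every other library, with a log2 change of -2.11 ± 0.23 over Progenitor (adjusted p = 2.53e-07), and SMC2 was higher than SMC1 by 2.28 ± 0.23 (adjusted p = 2.24e-07). SMC2 and Progenitor overlapped.

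Pcdh19 (chromosome X, 133582860 to 133688987), the gene of an X-linked epilepsy, stood at 35.5, 46.2 and 44.0 CPM in Progenitor, 12.6, 11.6 and 9.90 in Intermediate, 3.72, 2.61 and 4.04 in SMC1 and 20.2, 16.2 and 16.7 in SMC2. No 2 populations overlapped. The log2 change over Progenitor was -1.88 ± 0.19 for Intermediate (adjusted p = 5.5e-07), -3.60 ± 0.21 for SMC1 (adjusted p = 1.17e-11) and -1.24 ± 0.18 for SMC2 (adjusted p = 8.19e-06). Pcdh8 (paraxial protocadherin) followed at low level, at 3.74, 2.87 and 4.36 CPM in Progenitor and 0.204 to 0.960 in the other 9 libraries, with a log2 change of -3.78 ± 0.45 for SMC1 over Progenitor (adjusted p = 5.04e-07). Pcdh20, outside both delta groups (chromosome 14, 88464743 to 88471396), was also a Progenitor gene, at 38.6, 21.4 and 30.2 CPM against 2.39 to 11.6 in the other 9 libraries. It fell by 2.88 ± 0.36 on the log2 scale from Progenitor to Intermediate (adjusted p = 2.8e-05).

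**Figure D2:**
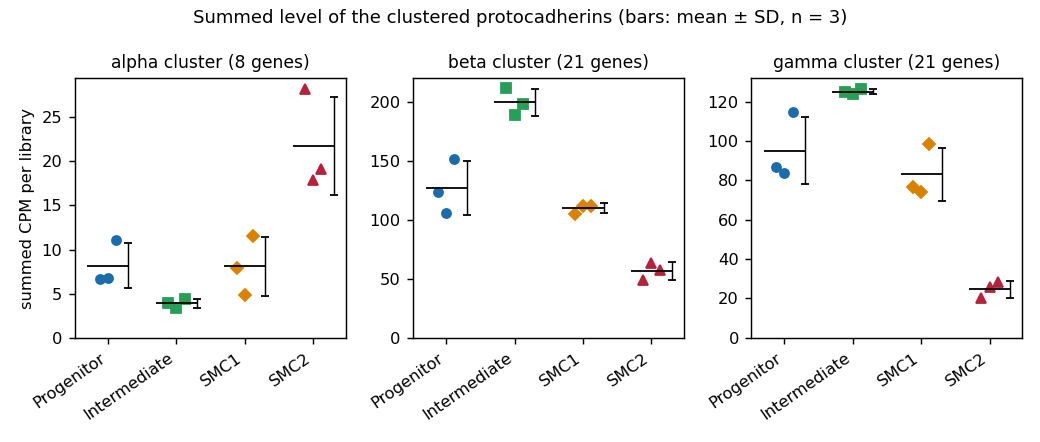
Summed CPM of the members found in the alpha, beta and gamma protocadherin clusters in each library, with the mean and SD of each population (n = 3) and a linear axis from 0. Beta and gamma sums are highest in Intermediate and lowest in SMC2; the alpha sum is highest in SMC2.

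The clustered protocadherins had an order of their own. The summed level of the 21 gamma genes was 86.9, 83.6 and 114.8 CPM in Progenitor, 124.8, 123.7 and 126.4 in Intermediate, 76.7, 74.0 and 98.6 in SMC1 and 20.02, 25.5 and 28.3 in SMC2. SMC2 was below every other library, with a mean 3.38 times lower than in SMC1 and 5.08 times lower than in Intermediate. The 21 beta genes summed to 124, 106 and 152 CPM in Progenitor, 212, 189 and 199 in Intermediate, 105, 112 and 112 in SMC1 and 49.0, 63.4 and 57.8 in SMC2. For the beta sum, Intermediate was above and SMC2 below all other libraries, with the SMC2 mean 1.94 times lower than that of SMC1. These sums are descriptions without a test.

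Gene by gene, all 20 gamma genes tested were lower in SMC2 than in Intermediate (median log2 change -2.08, against 0.04 over all genes tested). Against Progenitor 16 of the 20 were lower and 0 higher (median -1.62; 0.06 over all genes), and against SMC1 15 were lower and 0 higher (median -1.51; 0.00 over all genes). Of all genes, 23.2% were lower and 21.4% higher in SMC2 than in Intermediate. The shares were 21.7% and 23.1% against Progenitor, and 18.1% and 16.5% against SMC1. Leaving out single libraries gave 18 to 20, 13 to 17 and 12 to 15 genes lower in these 3 comparisons, with 0 higher each time. Between Intermediate and Progenitor 4 gamma genes were higher, 0 lower and 16 not called (12.7% of all genes higher, 9.46% lower). With the replicate number as a block, which pairs these 2 populations, 6 gamma and 9 beta genes were higher and 0 lower. Of all 19016 genes tested, 2583 were higher and 2011 lower with the block. The gamma count rests on single libraries: without the block it was 1 without Progenitor replicate 1 and 2 without Progenitor replicate 2, Intermediate replicate 2 or Intermediate replicate 3.

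Pcdhgc3, a C-type isoform, was the gamma gene with the highest level. It stood at 30.5, 32.8 and 49.4 CPM in Progenitor, 40.7, 35.2 and 39.0 in Intermediate, 22.2, 19.6 and 31.6 in SMC1 and 2.39, 4.99 and 4.26 in SMC2. SMC2 was the only population that overlapped with none, with a log2 change of -3.28 ± 0.26 over Progenitor (adjusted p = 2.74e-09), -3.31 ± 0.26 over Intermediate (adjusted p = 2.33e-09) and -2.66 ± 0.26 over SMC1 (adjusted p = 1.29e-07). Its share of the gamma sum was 15.5 ± 3.81% (SD, n = 3) in SMC2, 29.2 ± 2.77% in SMC1, 30.6 ± 2.11% in Intermediate and 39.1 ± 3.95% in Progenitor. The share of Pcdhgb6, the next gene, stayed between 6.80 and 9.21% on average in the 4 populations.

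Pcdhgb6 itself stood at 7.38, 5.73 and 9.66 CPM in Progenitor, 10.3, 12.1 and 12.1 in Intermediate, 4.43, 5.64 and 6.91 in SMC1 and 1.47, 1.88 and 2.46 in SMC2. Again SMC2 lay below all other libraries, with a log2 change over SMC1 of -1.55 ± 0.27 (adjusted p = 0.000126). Pcdhgc5, another C-type gene, stood at 7.99, 5.27 and 8.96 CPM in SMC1, 4.92, 4.67 and 5.18 in Progenitor, 2.49, 3.89 and 2.87 in Intermediate and 0.782, 1.04 and 1.56 in SMC2; it was higher in SMC1 than in Intermediate by 1.2596 ± 0.29 (adjusted p = 0.00161), where 9 other gamma genes were lower. Pcdhga1, the first gene of the cluster, was low in both SMC populations: 0.153, 0.420 and 0.469 CPM in SMC1 and 0.230, 0.296 and 0.300 in SMC2, against 4.47, 3.27 and 3.58 in Intermediate and 2.01, 1.33 and 1.90 in Progenitor. The log2 change of Pcdhga1 was -3.42 ± 0.43 for SMC1 over Intermediate (adjusted p = 1.56e-06).

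**Figure D3:**
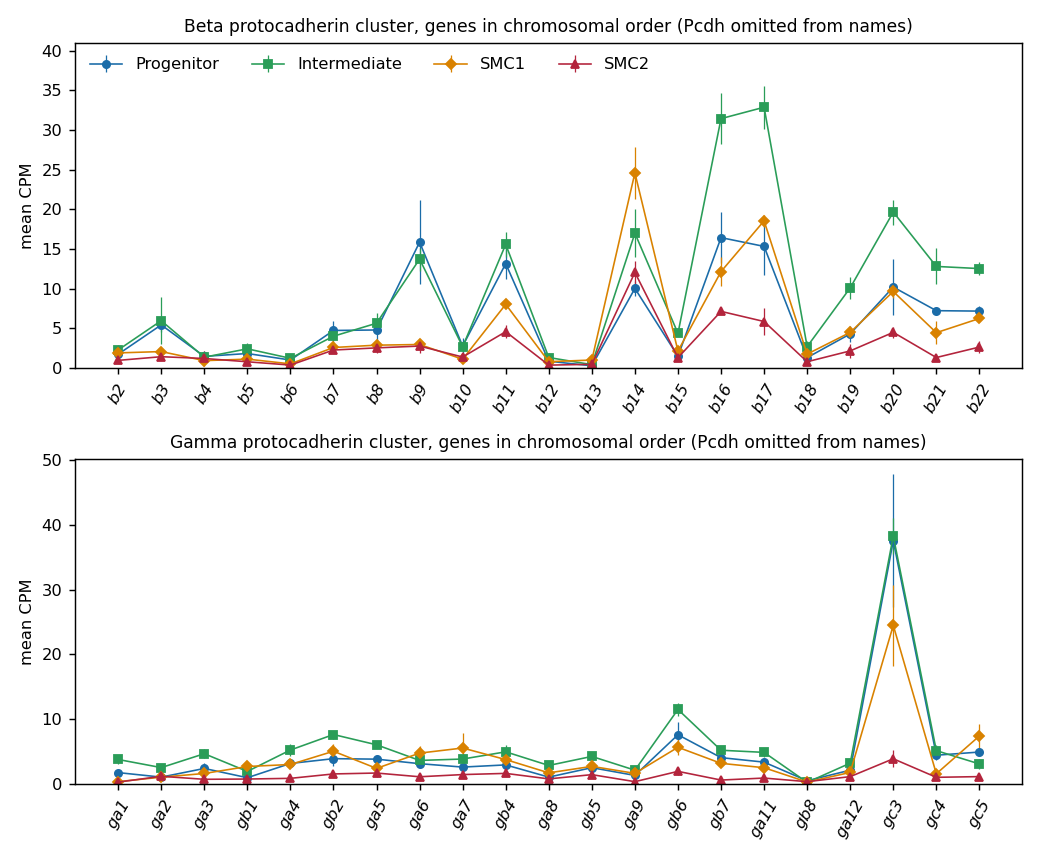
Mean CPM with SD (n = 3) of each beta gene (upper panel) and gamma gene (lower panel) in the order in which the genes lie on chromosome 18, with a line for each population that joins neighbours. In the beta panel the Intermediate line separates from the Progenitor line from Pcdhb14 on; in the gamma panel Pcdhgc3 is the tallest point in all populations and the SMC2 line is low throughout.

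The beta genes, which are single exons and nearly free of shared bases, followed a positional pattern between Intermediate and Progenitor. Of the 21, 8 were higher in Intermediate and 0 lower, and the 8 were Pcdhb14, Pcdhb15, Pcdhb16, Pcdhb17, Pcdhb19, Pcdhb20, Pcdhb21 and Pcdhb22. In the stretch from Pcdhb14 to Pcdhb22, 8 of 9 genes passed the test, with log2 changes of 0.76 to 1.56 over the 9 genes; the ninth, Pcdhb18, had 1.04 ± 0.37 (adjusted p = 0.0505). In the stretch from Pcdhb2 to Pcdhb13, 0 of 12 passed, with log2 changes of -0.24 to 0.67. In it, Pcdhb4, Pcdhb6, Pcdhb12 and Pcdhb13 had at most 39 counts in any Progenitor or Intermediate library, and Pcdhb9 and Pcdhb11 at least 164. Pcdhb15 and Pcdhb18 of the other stretch had 19 to 74 counts in these libraries. The part of low counts in the pattern was not tested. The boundary was drawn after the values were seen, and the difference between the stretches was not tested. Over all genes tested, 12.7% were higher in Intermediate. Leaving out single libraries gave 7 or 8 genes higher and 0 lower. Of the 8 calls, that of Pcdhb21 was lost without any of 6 libraries (adjusted p up to 0.125). The other alternatives gave 6 to 9 beta genes higher and 0 lower. With upper-quartile factors the calls of Pcdhb21 (adjusted p = 0.103) and Pcdhb22 (adjusted p = 0.0543) were lost.

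The same stretch carried most of the beta calls between the 2 SMC populations. From Pcdhb14 to Pcdhb22, 8 of 9 genes were lower in SMC2 than in SMC1 (log2 changes -1.76 to -0.72), where 18.1% of all genes were. From Pcdhb2 to Pcdhb13 the only gene of 12 called was Pcdhb11 (-0.81 ± 0.20, adjusted p = 0.00321). Against Progenitor, 6 of the 12 genes from Pcdhb2 to Pcdhb13 were lower in SMC1 and 7 in SMC2. From Pcdhb14 to Pcdhb22, 1 and 6 of the 9 were. Of all genes, 23.1% were lower in SMC1 and 21.7% in SMC2 than in Progenitor. For the whole beta cluster 7 genes were lower in SMC1 than in Progenitor, which became 3 without Progenitor replicate 3. Against Intermediate, 18 of the 21 beta genes were lower in SMC2 and 0 higher (median log2 change -1.77), and 15 to 19 were lower when single libraries were left out. Of all genes, 23.2% were lower and 21.4% higher in SMC2 than in Intermediate.

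**Figure D4:**
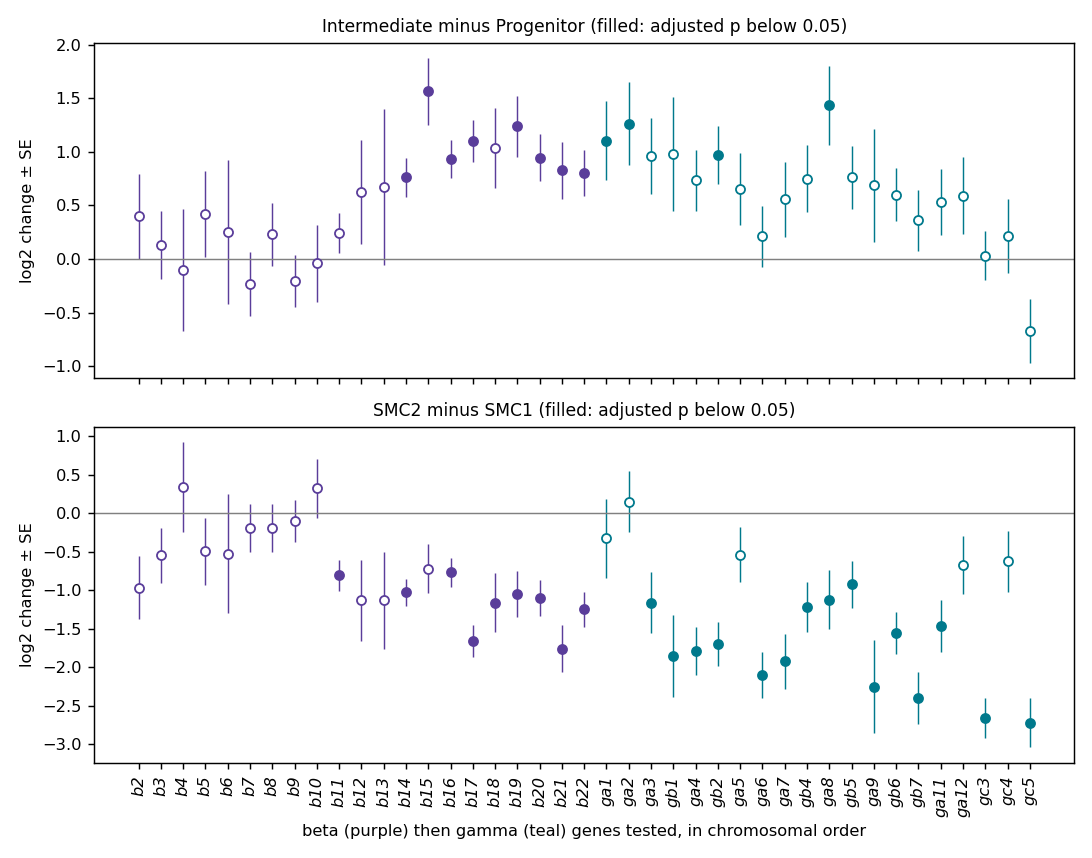
Log2 change with SE of the tested beta (purple) and gamma (teal) genes in chromosomal order, for Intermediate over Progenitor (upper panel) and SMC2 over SMC1 (lower panel); filled marks have an adjusted p below 0.05. In the upper panel the filled beta marks all lie from Pcdhb14 on, and in the lower panel 9 beta and 15 gamma marks are filled, all below 0.

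Pcdhb16 and Pcdhb17 were the beta genes with the highest levels. Pcdhb16 stood at 17.1, 12.9 and 19.3 CPM in Progenitor, 27.8, 32.8 and 33.7 in Intermediate, 10.2, 13.8 and 12.4 in SMC1 and 6.99, 6.96 and 7.44 in SMC2. Intermediate was above and SMC2 below all others, with log2 changes of 0.93 ± 0.18 over Progenitor (adjusted p = 0.000722) and -2.14 ± 0.19 for SMC2 over Intermediate (adjusted p = 6.44e-09). Pcdhb17 stood at 13.4, 13.1 and 19.5 CPM in Progenitor, 35.5, 32.9 and 30.1 in Intermediate, 19.2, 17.8 and 18.7 in SMC1 and 4.83, 7.75 and 4.98 in SMC2. It rose by 1.10 ± 0.20 from Progenitor to Intermediate (adjusted p = 0.000343), and was lower in SMC2 than in SMC1 (log2 change -1.66 ± 0.21, adjusted p = 1.98e-06).

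Pcdhb9 and Pcdhb14 were singled out after their values were seen. Pcdhb9 was low in both SMC populations, at 3.05, 2.66 and 3.16 CPM in SMC1 and 1.93, 3.70 and 2.64 in SMC2, and high in Progenitor (13.6, 12.1 and 21.9) and Intermediate (14.5, 12.1 and 14.6). Its log2 change over Progenitor was -2.42 ± 0.26 for SMC1 (adjusted p = 1.64e-07) and -2.52 ± 0.27 for SMC2 (adjusted p = 9.56e-08). Pcdhb14 was highest in SMC1, at 22.3, 28.4 and 23.02 CPM against 9.62, 9.40 and 11.1 for Progenitor, and its log2 change was 1.30 ± 0.18 (adjusted p = 5.61e-06).

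Among the 8 alpha genes found by the rule, nearly all counts belonged to Pcdhac2, the C-type gene next to the constant exons. It made up 89.2 to 94.2% of their sum on average in the 4 populations. Pcdhac2 ran against the beta and gamma genes: it stood at 27.4, 17.5 and 16.7 CPM in SMC2, 5.51, 6.33 and 10.3 in Progenitor, 3.73, 3.14 and 3.58 in Intermediate and 7.63, 4.43 and 10.95 in SMC1. SMC2 lay above all others, with a log2 change of 1.48 ± 0.29 over Progenitor (adjusted p = 0.000321), 2.56 ± 0.31 over Intermediate (adjusted p = 1.14e-06) and 1.43 ± 0.29 over SMC1 (adjusted p = 0.000687). Pcdha8, the next alpha gene, stood at 0 to 0.840 CPM and was not tested.

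Genes that work with cadherins were taken as 5 lists. Of 17 tested catenins and junction partners, 9 were higher and 6 lower in SMC1 than in Progenitor (4 to 6 lower when single libraries were left out), where 25.3% of all genes were higher and 23.1% lower. Ctnna3 (alpha-T-catenin, known from heart junctions) had 72.3 ± 13 CPM in SMC2, 32.3 ± 7.5 in SMC1, 2.01 ± 0.40 in Intermediate and 0.898 ± 0.19 in Progenitor (SD, n = 3), a rise of 6.35 on the log2 scale in SMC2 over Progenitor (adjusted p = 1.5e-13). Vcl (vinculin, which ties catenins to actin) rose by 3.38 in SMC1 over Progenitor (adjusted p = 7.9e-11), and Pkp4 (plakophilin 4) by 4.75 (adjusted p = 4.3e-10). Lima1, an actin-binding partner of alpha-catenin, had a log2 change of -2.85 there (adjusted p = 2.1e-11).

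Of 20 tested genes of the wider cadherin superfamily, 4 were higher and 6 lower in SMC1 than in Progenitor (4 to 8 lower without single libraries), near the 25.3% and 23.1% of all genes. Those 4 included the giant cadherins Fat1 (log2 change 2.38, adjusted p = 6.8e-08), Fat4 (1.49, adjusted p = 2.8e-05) and the cadherin Celsr2 (2.30, adjusted p = 0.00054). The lower ones included Ret, the receptor of GDNF family ligands (-2.67, adjusted p = 3.1e-06). Between Intermediate and Progenitor, Cdhr1 had the smallest adjusted p of the list (log2 change 4.12, adjusted p = 0.00012): it stood at 14.8 ± 2.9 CPM in Intermediate and 0.674 to 0.887 on average in the other 3 populations.

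Of 15 regulators known for the clustered protocadherins (the insulator protein Ctcf, cohesin, Smchd1, Setdb1, DNA methyltransferases and Tet enzymes), 9 were higher and 0 lower in SMC2 than in Progenitor, and 7 to 10 were higher when single libraries were left out; of all genes, 23.1% were higher and 21.7% lower. The log2 changes of the 4 with the smallest adjusted p were 1.84 for Tet3 (adjusted p = 8.9e-08), 1.34 for Tet1 (adjusted p = 1.3e-05), 0.90 for Dnmt3a (adjusted p = 9.1e-05) and 0.75 for Smchd1 (adjusted p = 0.0011). Tet1, Tet3 and Dnmt3a were also higher in Intermediate and in SMC1 than in Progenitor. Against Intermediate, 4 of the 15 were higher and 1 lower in SMC2 (21.4% and 23.2% of all genes). Against SMC1, 2 were higher and 2 lower in SMC2 (16.5% and 18.1% of all genes). These last counts changed when single libraries were left out. A link between the regulators and the protocadherin levels was not tested.

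Of 12 genes for cadherin shedding and processing (Adam proteases, gamma-secretase, furin-type convertases, Mmp2 and Mmp14), 0 were higher and 10 lower in SMC2 than in Progenitor (8 to 10 lower without single libraries), where 23.1% of all genes were higher and 21.7% lower. The 4 with the smallest adjusted p were Pcsk6 (log2 change -5.24, adjusted p = 3.9e-11), Mmp2 (-5.43, adjusted p = 1.4e-10), Mmp14 (-1.43, adjusted p = 7.4e-06) and Psen2, a gamma-secretase subunit (-0.86, adjusted p = 0.000538). Of 8 tested repressors of epithelial cadherin, 7 were lower and 1 higher in SMC1 than in Progenitor, against 23.1% and 25.3% of all genes. Tcf4 (-1.88, adjusted p = 1.4e-08), Twist2 (-2.76, adjusted p = 3.7e-07), Twist1 (-1.53, adjusted p = 5.4e-06) and Snai1 (-2.78, adjusted p = 5.6e-06) were among the lower ones. The higher one, Zeb1 (0.52, adjusted p = 0.017), was lost without any of 4 libraries, as the count of higher genes fell to 0. Cdh1, the gene these factors repress, had a mean of 0.720 ± 0.269 CPM (SD, n = 3) in Progenitor and 1.03 ± 0.430 in SMC1 (log2 change 0.52 ± 0.50, adjusted p = 0.404).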

How the data were processed

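RNA-seq counts per gene, as deposited by the authors, were read for 12 libraries, 3 in each of 4 populations. Per the submitters' processing notes STAR 2.5.2a, DESeq2 1.26.0 and the mm10 build were used; the counting program, its annotation and its strand setting are not given in the sources used here. Other deposited tables of normalized values were not used here. The counts were fitted with edgeR 4.0.16 and limma 3.58.1 in R 4.3.3: TMM factors, filterByExpr (19016 of 33352 genes tested), 1 mean per population over all 12 libraries, and the quasi-likelihood test with 8 residual degrees of freedom, with p-values adjusted by Benjamini-Hochberg over all genes tested in each comparison at 0.05. The common biological coefficient of variation was 0.206. CPM uses the TMM-scaled library size; 3 counts came to 0.137 to 0.2 CPM. Gene positions and exon overlap came from GENCODE M21 (GRCm38), in which 33323 identifiers matched.

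The members and gene lists were chosen with earlier results of these data known. Named members were nonclustered genes among the 14 with the highest mean CPM, the 2 highest of each cluster and, per comparison, up to 3 highest and 3 lowest called changes whose populations did not overlap and reached 1 CPM. Of each gene list up to 4 genes with the smallest adjusted p in a described comparison were named. Replicate numbers deviated together in all 3 pairs for Intermediate and Progenitor (r of 0.171, 0.191 and 0.17), by the criterion of r above 0.1, and not in all 3 pairs of the other comparisons. Alternatives were median-of-ratios and upper-quartile factors, no filter on low counts, DESeq2 1.42.0, a replicate block, a fit of only the 6 libraries compared, and leaving out each library. The scripts were tested on simulated data.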

Additional observations from a re-analysis of the deposited data

How the results depend on the processing

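The number of members called kept within 1.5 times its value under every alternative run. Leaving out single libraries gave 21 to 29 members for Intermediate against Progenitor, 27 to 35 for SMC1 and 38 to 47 for SMC2 against Progenitor, 35 to 44 for SMC1 and 49 to 59 for SMC2 against Intermediate, and 38 to 42 for SMC2 against SMC1. The other alternatives gave 22 to 33, 32 to 35, 39 to 49, 41 to 45, 53 to 59 and 38 to 44 in the same order. Of 250 called changes of members, 0 reversed under any alternative; upper-quartile factors lost 19, no filter on low counts 11, DESeq2 10 and median-of-ratios factors 4, the fit of only the 6 libraries compared lost 15 of 247, and leaving out single libraries lost 235 of 3000. Upper-quartile factors moved the median log2 change of all genes by -0.182 for SMC1 over Progenitor, -0.158 for Intermediate over Progenitor and 0.11 for SMC2 over SMC1; the cause was not tested. With the replicate block, 33 members were called for Intermediate against Progenitor, 35 and 48 for SMC1 and SMC2 against Progenitor, 44 and 59 for SMC1 and SMC2 against Intermediate, and 44 for SMC2 against SMC1; of the 250 called changes it ended 1, that of Pcdhb8 in SMC1 against Progenitor (adjusted p = 0.0533). Depth limits members below about 0.2 CPM, the value of 3 counts.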
